A study of Homo sapiens with 4 samples.

Results

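Large clusters of TEAD1 peaks were described in H69 cells, which the labels give only as a human cell line. Whether neighbouring peaks mark separate binding sites was not tested. A cluster, called a run here, was a row of at least 6 TEAD1 peaks with gaps of at most 10 kb between neighbours. Members were peaks on chromosomes 1 to 22 that were narrower than 1000 bp and more than 50 kb from any peak of 1000 bp or wider in any list. Of 48962 TEAD1 peaks, 46973 lay on these chromosomes, 46548 of those were narrow, and 45068 of those were also far from wide peaks. Among these 45068 eligible peaks, 3149 fell in 390 runs (6.99% of the eligible peaks and 6.43% of all TEAD1 peaks), and the other 41919 lay in no run. Number of peaks, spacing, the limit on width and the distance from wide peaks of all 3 lists chose the members, so these are descriptions and support nothing. The YAP lists thus entered the choice through their wide peaks. Without that exclusion the shares of members with a YAP peak, given below, were 5.79% for Avruch and 2.88% for Santa Cruz. Peaks in no run then had 2.25% and 0.485%.

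The data came from chromatin immunoprecipitation followed by sequencing of formaldehyde-fixed H69 cells. No genetic change or treatment is named in the labels. The libraries were 1 with an unrelated IgG, 1 with a TEAD antibody that the design text names as TEAD1, 1 with a YAP antibody from Santa Cruz and 1 with a YAP antibody that the design text names as Avruch. Each of the last 3 had 1 list of peaks, and the IgG library was not analysed here. The Avruch list held 10118 peaks and the Santa Cruz list 2471. No antibody had a replicate, so no test across samples was possible. Read depth is unknown from the lists, and intervals on shares are Wilson 95% intervals that cover counting error only. Neighbouring peaks of a run share their surroundings and are not independent, so such intervals are narrower than the true uncertainty.

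TEAD proteins are transcription factors that bind DNA themselves. YAP has no DNA-binding domain and is held on chromatin by partners such as the TEADs, while the Hippo kinases keep phosphorylated YAP out of the nucleus. Dense groups of bound sites are a known feature of super-enhancers, which are usually defined by Mediator or histone marks. Such marks were not analysed here, so the runs are described only as clusters of peaks. Coordinates below are 1-based in build hg19. The genes and DNA sequence at the runs were not analysed here.

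Most runs were short. Runs of 6 or 7 peaks made up 237 of 390 (60.8%, 55.8 to 65.5), 69 had at least 10 peaks (17.7%) and 8 had at least 20 (2.05%). The median run held 7 peaks over 23.9 kb, with quartiles of 17.2 and 31.6 kb and a range of 3.27 to 115.6 kb. All runs together spanned 10042.4 kb, of which the peaks themselves covered 1071.8 kb (10.7%). The spans were thus mostly sequence between narrow peaks. The median gap between neighbours was 2523 bp (quartiles 670 and 5412 bp over 2759 gaps), 31.2% of gaps were at most 1 kb and 27.7% were over 5 kb. Density had a median of 3.15 peaks per 10 kb. The densest run, chosen after its value was seen, had 18.4 per 10 kb, with 7 peaks in 3.81 kb on chromosome 7 (116162367 to 116166180).

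At the limits of the definition, 307 groups of exactly 5 peaks lay just outside and 150 runs of exactly 6 just inside. A further eligible peak lay over 10 and at most 11 kb from an end of 50 runs. The widest member was 978 bp, and the run nearest to a wide peak was 50.4 kb from it. An excluded TEAD1 peak within 10 kb of an end was found at 2 runs.

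**Figure D1:**
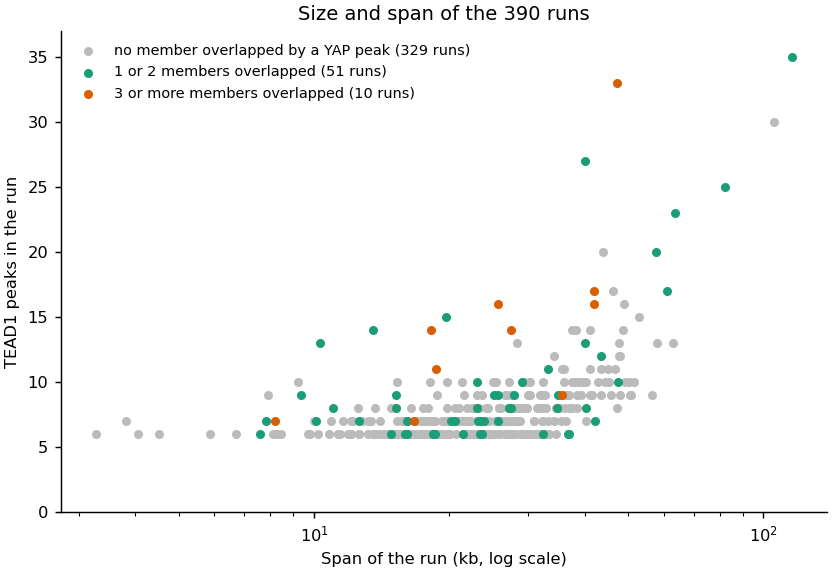
Number of TEAD1 peaks in each run (vertical axis) against its span in kb (horizontal axis, log scale), with each point a run and colour giving how many members were overlapped by a YAP peak of either antibody. The 35-peak run on chromosome 17 spans 115.6 kb, while the 33-peak run on chromosome 5, with 14 members overlapped, spans 47.2 kb.

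The runs were spread unevenly over the chromosomes. Chromosome 1 held 52 runs, chromosome 19 held 51, chromosome 7 held 39 and chromosome 17 held 34, while chromosomes 4 and 14 held 2 each and chromosome 18 none. Runs took in 17.6% of the eligible peaks of chromosome 19 (426 of 2418, 16.2 to 19.2). They took in 12.3% on chromosome 20, 11.5% on chromosomes 7 and 22, and 11.2% on chromosome 17. Chromosome 19 also had the most eligible peaks per Mb between its outermost peaks, 40.9, against 10.4 on chromosome 18 and 9.82 on chromosome 4. The definition rests on spacing, so peak density enters it. The order of chromosomes by density was not that by share in runs. Chromosome 15 had 22.4 eligible peaks per Mb with 8.33% of them in runs, and chromosome 7 had 18.2 per Mb with 11.5%.

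The outermost parts of the chromosomes held a larger share of members than of other peaks. Within 5 Mb of the outermost peak of a chromosome in any list lay 38.3% of members (1205 of 3149) and 12.9% of eligible peaks in no run (5390 of 41919). By runs, 142 of 390 (36.4%) lay there. On chromosomes whose short arm has few or no peaks, the outermost peak is not near the end of the chromosome, and peak density was not matched in this comparison. Another run lay within 1 Mb of 265 of the 390 runs (67.9%), and these formed 67 neighbourhoods. The fullest was on chromosome 19 from 471162 to 4900058, with 21 runs and 208 members. Next by number of runs were chromosome 1 from 133169 to 2693766 (14 runs, 105 members) and chromosome 17 from 78790897 to 81165627 (13 runs, 95 members). The neighbourhoods on chromosomes 7 (74202542 to 76639929), 8 (144455281 to 146041071) and 20 (60902410 to 62733965) held 12 runs each, with 85, 107 and 112 members.

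The deposited score of a peak, the peak caller's own value with no stated unit, did not enter the choice of members and is used only within the TEAD1 list, where it starts at 50. Members had a median score of 69.1 (quartiles 57.2 and 98.8, 95% interval of the median 68.08 to 70.13), and eligible peaks in no run had 66.2 (56.8 and 90.4). Lone peaks had 65.5, pairs 67.7, groups of 3 to 5 peaks 68.0, runs of 6 or 7 peaks 68.8, runs of 8 or 9 peaks 69.6 and runs of 20 or more 69.5. These medians all lay within the quartiles of the members. A score in the top 5% of the whole TEAD1 list (263.46 or higher) was reached by 146 of 3149 members (4.64%, 3.96 to 5.43), against 4.41% of all eligible peaks. The members' share was near this background, but it was 6.78% in runs of 6 (61 of 900, 5.31 to 8.61) and 3.21% in runs of 10 or more (30 of 934, 2.26 to 4.55). Members were wider than peaks in no run, with a median of 299 bp against 270 bp, and the median reached 339 bp in runs of 20 or more.

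Within a run, scores were uneven. The strongest peak of a run had a median score of 171.6, those ranked 2 and 3 a median of 93.6, and the remaining 1979 members 60.5. Ranks by score set this order, so it is a description. The strongest peak scored at least 3 times the median of its run's other peaks in 152 of 390 runs (39.0%), and at least 10 times in 30 (7.69%). It took a median of 26.0% of the run's summed score (range 7.32% to 82.3%). At least 1 member in the top 5% of scores was present in 109 runs (27.9%), at least 2 in 33 and at least 3 in 3. In 74 runs the strongest peak scored below 100. Thus some runs were a strong peak with weak neighbours and others held weak peaks alone.

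The run with the most peaks lay on chromosome 17 (18981767 to 19097326). It had 35 peaks over 115.6 kb, with scores from 50 to 1464.17 and a median of 71.74. Its strongest peak (19047604 to 19048185) scored 1464.17, followed by peaks of 589.68 and 524.33 that lay 62.76 kb before it and 25.77 kb after it. Strong peaks thus stood far apart among weaker ones. The run with 33 peaks lay on chromosome 5 (69782586 to 69829773) and was more even, with a highest score of 248.43, a second of 219.39 and a median of 74.30. Peaks covered 32.0% of its 47.2 kb, against 12.1% in the 35-peak run.

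On chromosome 19, a run of 30 peaks (583180 to 688591) had a highest score of 161.47 and a median of 64.59, and no peak in the top 5%. A run of 27 peaks on chromosome 4 (132645396 to 132685404) was compact, at 6.75 peaks per 10 kb. Its nearest wide peak was 57881.0 kb away, and its highest score, 245.31, belonged to the peak at its end. Chromosome 4 had only 1 other run. The 25-peak run on chromosome 7 (5565985 to 5647868) held a peak of 1882.96 (5631077 to 5631618) and another of 613.03 lying 19.80 kb before it, around a median of 80.06. It was the only run among both the 12 largest and the 6 with the highest-scoring peak.

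The 7 other runs among the 12 largest had 16 to 23 peaks. Of 3 runs tied at 16 peaks, the one with the highest summed score is counted here, and the other two lay on chromosome 5 and are described with the YAP peaks. Highest scores were 311.9 in the 23-peak run on chromosome 7 (102118687 to 102182045), 326.25 in the 20-peak run on chromosome 8 (144986870 to 145030816) and 204.51 in the 20-peak run on chromosome 22 (46464770 to 46522462). Among runs of 17 peaks, the highest score was 251.07 on chromosome 5 (69491312 to 69533321), 272.46 on chromosome 19 (845511 to 906389) and 233.77 on chromosome 20 (62687770 to 62733965). The 16-peak run on chromosome 7 (100723819 to 100772718) reached 808.08, and 4 of its peaks were in the top 5%, the most of any of the 390 runs. Highest scores did not follow the order of size in these 12 runs and ranged from 161.47 to 1882.96.

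**Figure D2:**
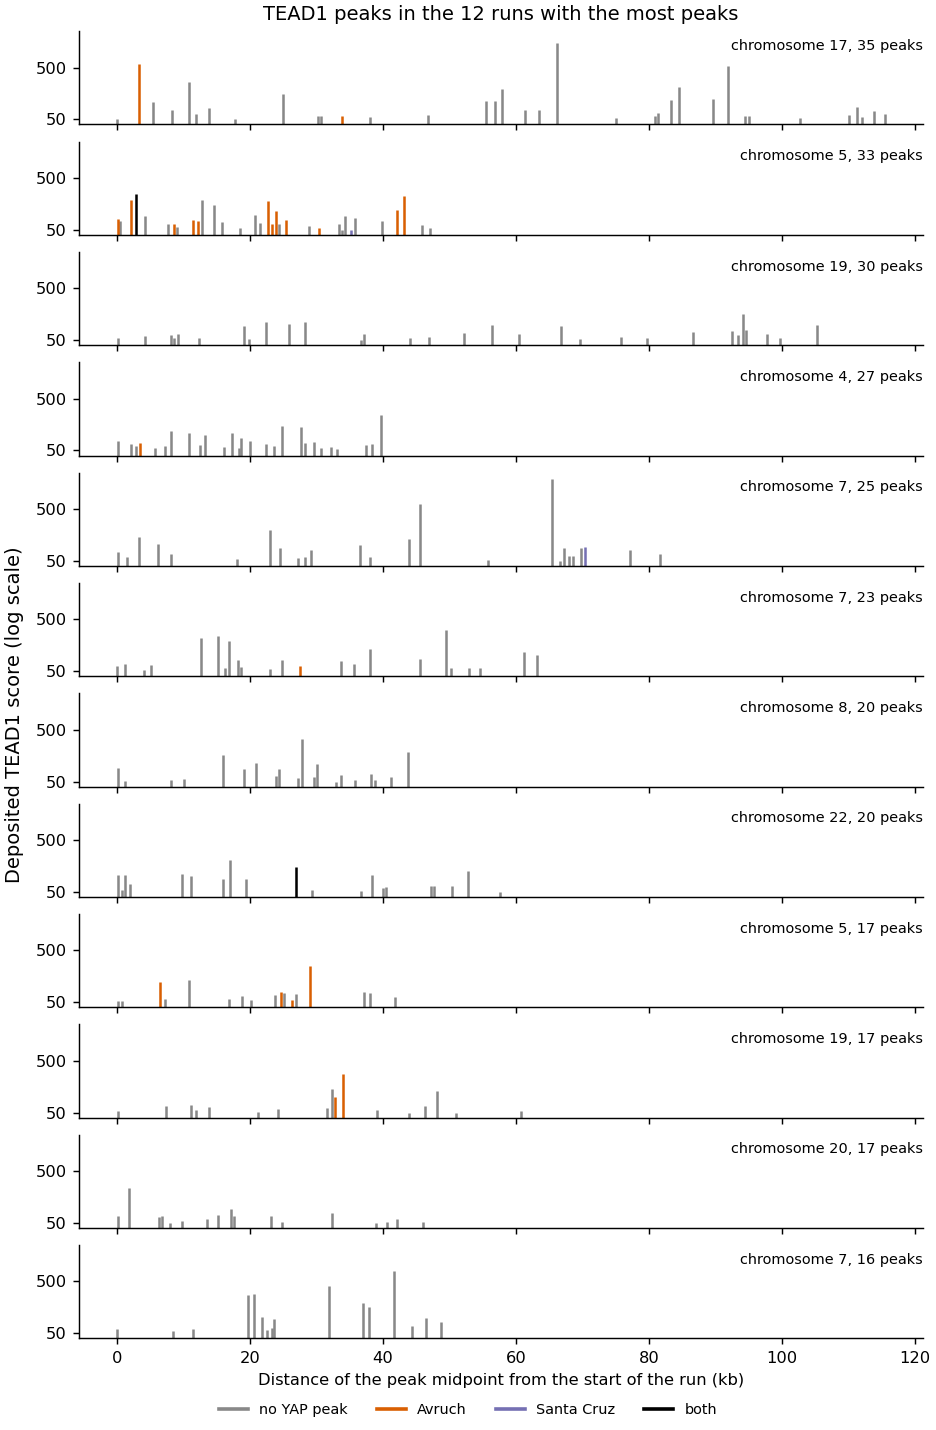
TEAD1 peaks in the 12 runs with the most peaks, with each line a peak placed by its distance from the start of the run in kb (horizontal axis) and its height the deposited score (vertical axis, log scale). Grey peaks had no YAP peak, and most coloured lines (YAP overlap) stand in the 33-peak and 17-peak runs of chromosome 5, where the Avruch antibody marked 13 and 4 members.

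Of the 6 runs with the highest-scoring peaks, 5 had 6 to 9 peaks, and the other was the 25-peak run on chromosome 7. The 4 highest lay on chromosome 10 and had 7, 6, 9 and 6 peaks. Their strongest peaks scored 2982.74 (47152496 to 47153106), 2821.44 (47767896 to 47768545), 2779.44 (48276308 to 48276873) and 2480.03 (49195839 to 49196572). The next highest was a peak of 2239.9 in a 6-peak run on chromosome 3 (112365633 to 112366458), where the second score was 310.5. The strongest peak held 73.9% to 82.3% of the summed score in these 5 runs and 42.6% in the 25-peak run on chromosome 7.

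The first 3 of the chromosome 10 runs had the same layout. In the first run, peaks lay 10.02, 10.92, 18.70 and 21.41 kb after the strongest peak, with scores of 114.08, 84.98, 337.43 and 65.83. In the second, peaks lay 9.98, 10.87, 18.62 and 21.36 kb before the strongest peak, with scores of 86.06, 50.61, 184.06 and 109.69. In the third, peaks lay 10.07, 10.94, 18.78 and 21.44 kb before it, with scores of 124.61, 79.78, 376.75 and 71.24. These distances matched within 100 bp between any 2 of the 3 runs, in mirror image for the first, except that near 18.7 kb between the second and the third. The peak near 18.7 kb was the strongest of the 4 in every case. On the other side of the strongest peak, a further peak stood at 2.12, 2.61 and 2.70 kb. The fourth run did not have these distances.

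Layouts were compared over all pairs of runs, a comparison chosen after the chromosome 10 runs had been seen. At least 4 peaks besides the strongest lay at the same distance from it, within 100 bp and in either orientation, in 34 of 75855 pairs (0.0448%). Of these 34 pairs, 28 included a run of 13 or more peaks, in which many distances can match, and 8 included the 33-peak run. Only 5 pairs joined runs that both had fewer than 10 peaks, among them the 3 pairs on chromosome 10. How the alignment treated reads that match more than 1 place is not given in the sources used here, and their part in these layouts was not tested.

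**Figure D3:**
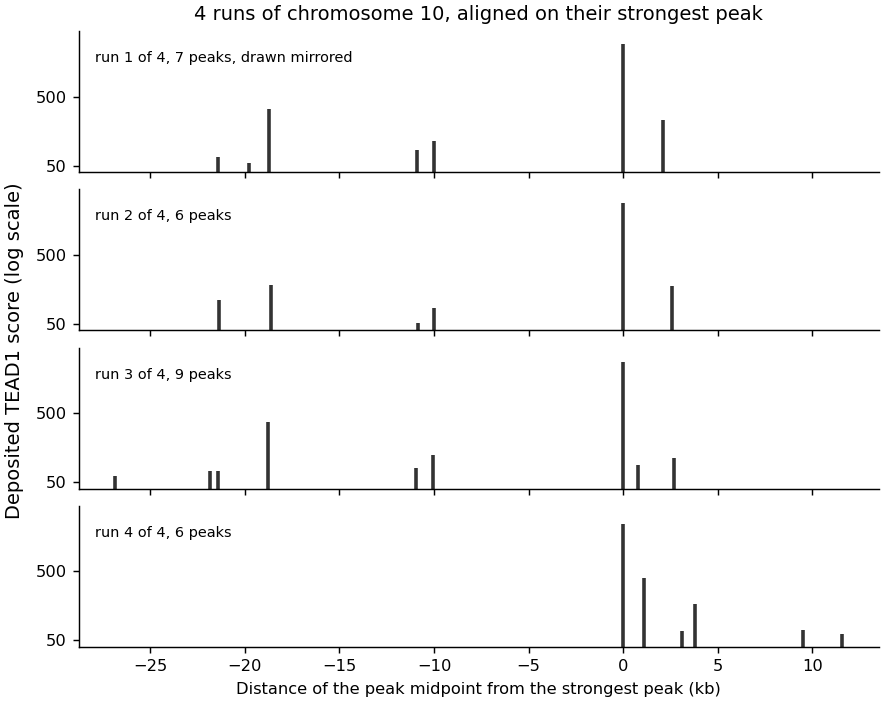
Peaks of the 4 chromosome 10 runs, aligned on their strongest peak (0 on the horizontal axis, kb) with the deposited score as height (log scale) and the first run drawn mirrored. In the first 3 runs, peaks recur near 10, 10.9, 18.7 and 21.4 kb from the strongest peak, and the fourth run lacks them.

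YAP lists were compared with the runs by overlap of at least 1 bp. An Avruch peak overlapped 93 of 3149 members (2.95%, 2.42 to 3.60), against 2.22% of all eligible peaks, 2.16% of those in no run (907 of 41919, 2.03 to 2.31) and 3.11% of all TEAD1 peaks. A Santa Cruz peak overlapped 36 members (1.14%, 0.827 to 1.58), against 0.477% of all eligible peaks, 0.427% of those in no run (179 of 41919, 0.369 to 0.494) and 1.14% of all TEAD1 peaks. Either antibody marked 117 members (3.72%), against 2.55% of eligible and 3.59% of all TEAD1 peaks. Both marked 12 members (0.381%, 0.218 to 0.665) and 53 peaks in no run (0.126%, 0.0967 to 0.165). Most members thus had no YAP peak. The shares in runs were higher than in other eligible peaks for each antibody, and with 1 library each these differences describe the libraries.

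Overlap was concentrated in few runs. At least 1 member was overlapped by a YAP peak in 61 of 390 runs (15.6%, 12.4 to 19.6). Of these, 43 had exactly 1 overlapped member. Avruch peaks overlapped members of 47 runs, Santa Cruz peaks members of 28, and 14 had both. YAP peaks that lay between the members of a run were not counted here. Longer runs have more peaks that can be overlapped. A member was overlapped in 25 of 237 runs of 6 or 7 peaks (10.5%), 14 of 84 runs of 8 or 9 (16.7%) and 22 of 69 runs of at least 10 (31.9%).

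The share per peak also differed with run size. Avruch overlap was 2.5% for lone peaks (2.30 to 2.71), 1.71% for pairs, 1.84% for groups of 3 to 5, 1.66% in runs of 6 or 7 (1.12 to 2.43) and 1.56% in runs of 8 or 9. It was 5.41% in runs of 10 to 19 (39 of 721, 3.98 to 7.31) and 8.45% in runs of 20 or more (18 of 213, 5.41 to 13), where 13 of the 18 came from the 33-peak run. In runs of 10 to 19, 26 of the 39 came from 5 of the 6 runs with the most YAP-overlapped members, which are described below. Without those 6 runs, picked by their overlap, Avruch overlap was 2.01% in runs of 10 to 19 (13 of 647, 1.18 to 3.41) and 2.78% in runs of 20 or more (5 of 180, 1.19 to 6.34). Santa Cruz overlap was 0.377% for lone peaks (0.306 to 0.466), 0.861% in runs of 6 or 7, 1.66% in runs of 10 to 19 and 1.88% in runs of 20 or more (0.733 to 4.73), and without those 6 runs the last 2 values were 0.773% and 1.11%. For Avruch, runs of fewer than 10 peaks were no higher than lone peaks.

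**Figure D4:**
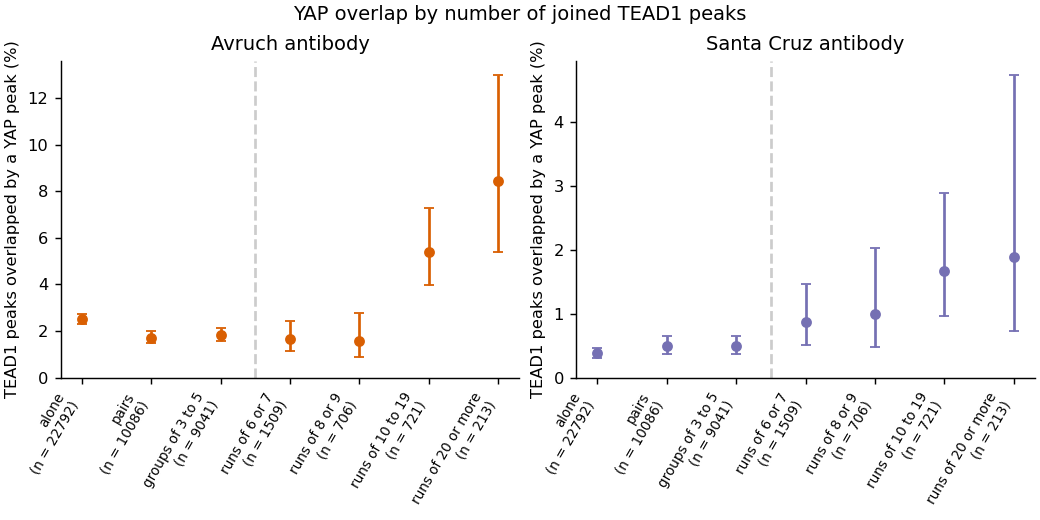
Share of TEAD1 peaks overlapped by an Avruch (left) or Santa Cruz (right) YAP peak, in percent, by the number of eligible TEAD1 peaks joined at gaps of at most 10 kb, with Wilson 95% intervals and runs right of the dashed line. Avruch overlap stays between 1.56% and 2.5% up to runs of 8 or 9 peaks and is 5.41% and 8.45% in the larger classes, or 2.01% and 2.78% without the 6 runs with the most overlapped members.

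The 6 runs with the most overlapped members held 39 of the 93 Avruch members (41.9%) and 9 of the 36 Santa Cruz members. Of these 6 runs, 4 lay in a single neighbourhood of chromosome 5 (68927028 to 70533632) with 82 members. The 33-peak run there had 13 Avruch and 2 Santa Cruz members. The 16-peak run at 68927028 to 68952594 had 8 and 2, with 2 adjoining peaks of 166.78 and 164.62 marked by both antibodies. The 17-peak run had 4 and 0, and the 16-peak run at 70491654 to 70533632 had 4 and 2. In all 4, peak scores were moderate, with highest values of 184.06 to 251.07 and no peak in the top 5%. How reads that match more than 1 place were treated at these 4 runs is unknown, and their part in this overlap was not tested.

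The fifth of these runs lay on chromosome 14 (105689040 to 105707243). The Avruch antibody marked 9 of its 14 peaks, the largest share in any of the 6, and the Santa Cruz antibody none. Its strongest peak (105697160 to 105697878, score 214.79) was among those marked. The sixth, on chromosome 7 (102312435 to 102331120), had 11 peaks with 1 Avruch and 3 Santa Cruz members. Its 4 overlapped members were tied with those of smaller runs on chromosomes 1 and 6. The former, chosen after its values were seen (2685581 to 2693766), had 7 peaks in 8.19 kb, and both antibodies marked the same 4 of them.

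The remaining members had an Avruch share of 1.78% (54 of 3042, 1.36 to 2.31), below the 2.16% of peaks in no run. The Santa Cruz share was 0.888% (27 of 3042, 0.611 to 1.29), still above 0.427%. However, the 6 runs were ranked by overlap with either antibody. They held 39 of the 93 Avruch members but only 9 of the 36 Santa Cruz members. A chromosome 1 run with 4 Santa Cruz members stayed in. The antibodies thus cannot be compared by these values. Without chromosome 5, Avruch overlap was 2.03% in members (60 of 2952) and 2.14% in peaks in no run, and Santa Cruz overlap was 0.982% and 0.429%. Chromosome 5 held 33 of the 93 Avruch members and 4 of the 6 runs. It was left out after the data had been seen, so these values are no independent check. The 6 runs were picked by their overlap and nothing alike was taken from the peaks in no run, so the value without them falls by construction. Without the single run with the most overlapped members, the Avruch share was 2.57%, above 2.16%. Avruch overlap was also not higher in runs with gaps of up to 20 kb (2.21% against 2.22%) or with an overlap of 50% of both peaks (0.826% against 0.949%).

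Distance from wide peaks moved with the overlap. Among members 50 to 200 kb from a wide peak of any list, Avruch overlap was 6.94% (24 of 346, 4.71 to 10.1), against 2.36% of peaks in no run at that distance. At 200 to 1000 kb it was 4.56% (37 of 811, 3.33 to 6.23) against 2.32%. Beyond 1000 kb it was 1.61% (32 of 1992, 1.14 to 2.26) against 2.14% (1.99 to 2.29). Santa Cruz overlap was 2.89% against 1.25%, 1.48% against 0.826%, and 0.703% (14 of 1992, 0.419 to 1.18) against 0.348% (0.292 to 0.414). Overlap in runs was thus highest nearest to wide peaks for both antibodies, and beyond 1000 kb Avruch overlap was no higher in runs than elsewhere. Peaks in no run went the same way for Santa Cruz, from 1.25% to 0.348%, and stayed between 2.14% and 2.36% for Avruch. The 4 YAP-rich runs of chromosome 5 lay 241.8 to 406.1 kb from a wide peak and gave 29 of the 37 Avruch members at 200 to 1000 kb. Without them, that class had 1.10% for Avruch (8 of 729, 0.557 to 2.15), against 2.32% in no run, and 0.823% for Santa Cruz, against 0.826%. The YAP-rich runs of chromosomes 14 and 7 lay 109.5 and 77.2 kb from one. With all 6 YAP-rich runs left out, Avruch overlap at 50 to 200 kb was 4.36% (14 of 321, 2.62 to 7.19). These runs were picked by their overlap and nothing alike was taken from the peaks in no run, so values without them fall by construction. The part of wide peaks in this overlap was not tested.

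**Figure D5:**
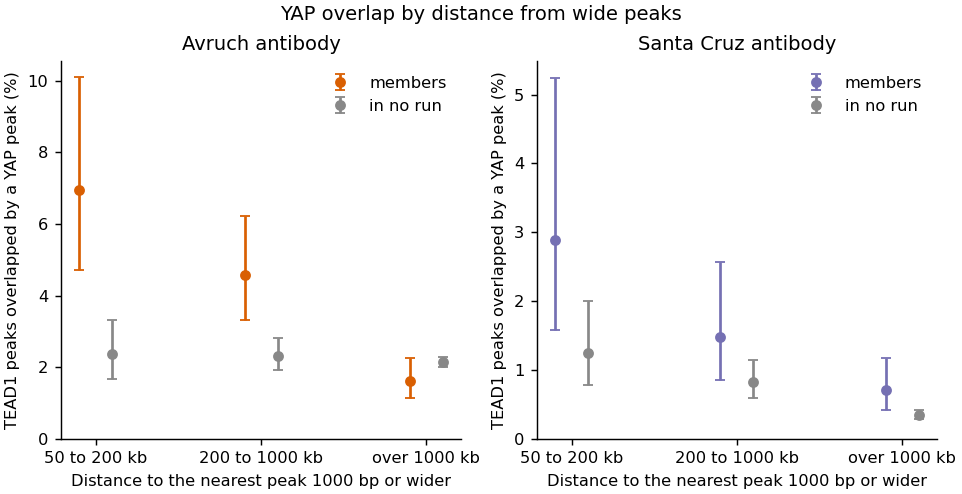
Share of TEAD1 peaks overlapped by an Avruch (left) or Santa Cruz (right) YAP peak, in percent, by distance to the nearest peak of 1000 bp or wider, for members of runs (coloured) and eligible peaks in no run (grey), with Wilson 95% intervals. Avruch overlap of members goes from 6.94% at 50 to 200 kb to 1.61% beyond 1000 kb. For Avruch, peaks in no run stay between 2.14% and 2.36%, while for Santa Cruz they go from 1.25% to 0.348%. The members' Avruch share of 4.56% at 200 to 1000 kb is 1.10% without 4 runs of chromosome 5. These were picked by their overlap, so it falls by construction.

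Members with a YAP peak were stronger and wider. With an Avruch peak the median score was 96.0 (93 members, quartiles 68.1 and 145.6) and the median width 422 bp, against 68.7 and 296 bp without. With a Santa Cruz peak the values were 116.3 and 503 bp over 36 members. For eligible peaks in no run, the median score was 73.2 with an Avruch peak and 66.1 without, and the widths were 278 and 270 bp. Wider peaks are overlapped more easily. In peaks of 500 bp or wider, Avruch overlap was 9.02% in members (33 of 366, 6.49 to 12.4) and 2.93% in no run (74 of 2525, 2.34 to 3.66). In peaks narrower than 250 bp it was 0.890% in members (8 of 899, 0.452 to 1.75) and 1.91% in no run (309 of 16161, 1.71 to 2.13). It was 4.02% against 1.96% at 350 to 499 bp and 1.98% against 2.39% at 250 to 349 bp. Avruch overlap was thus higher in members than in no run from 350 bp upwards and lower under 250 bp. At 250 to 349 bp the intervals overlapped (1.32 to 2.95 against 2.16 to 2.64). The 6 YAP-rich runs, which held 39 of the 93 Avruch members, were not left out of these width classes. Santa Cruz overlap was higher in members in all 4 width classes, from 0.445% against 0.254% in the narrowest through 0.602% against 0.430% and 0.971% against 0.542% to 4.92% against 1.19% in the widest. These shares rested on 4, 7, 7 and 18 overlapped members, and the intervals of members and peaks in no run overlapped in all but the widest class.

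In most runs with a YAP-overlapped member, the strongest peak was not overlapped. Of the 61 such runs, the strongest TEAD1 peak was overlapped in 21 (34.4%, 23.7 to 47.0). In 43 of the 61 only 1 member was overlapped, and the share expected from run size was not computed. Over all runs, Avruch overlap was 3.85% for strongest peaks (15 of 390, 2.34 to 6.25), 3.33% for those ranked 2 and 3, and 2.63% for the rest (52 of 1979, 2.01 to 3.43). Santa Cruz overlap was 2.31%, 1.41% and 0.808%. Strongest peaks were also wider, with a median of 468 bp against 266 bp for the rest, and width was not matched in this comparison. Of the 6 runs with the highest-scoring peaks, only the first chromosome 10 run had its strongest peak overlapped, by an Avruch peak. The 25-peak run on chromosome 7 had a Santa Cruz peak on a weaker member.

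YAP peaks inside the span of a run often missed its TEAD1 peaks. Of 216 Avruch peaks in run spans, 95 overlapped a member (44.0%, 37.5 to 50.6), and of 71 Santa Cruz peaks, 36 did (50.7%, 39.3 to 62.0). Among narrow YAP peaks far from wide peaks and outside run spans, 11.7% of Avruch (910 of 7773) and 11.9% of Santa Cruz peaks (181 of 1518) overlapped a TEAD1 peak. The share of sequence covered by TEAD1 peaks was not matched in this comparison. Run spans held 2.13% of all Avruch and 2.87% of all Santa Cruz peaks.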

How the data were processed

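Chromatin immunoprecipitation sequencing of H69 cells was analysed from 3 peak lists (TEAD1, YAP Avruch and YAP Santa Cruz, 1 library each). Reads were aligned with Bowtie2 to hg19, per the submitters' processing notes. MACS appears in every peak name of the deposited lists. Its settings, its control library and how it treated duplicate reads were not given in the sources used here. Scores are the authors' deposited values per peak and were used only within a list. Depth is unknown from the lists.

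Runs, overlaps of at least 1 bp and Wilson 95% intervals were computed in Python 3.11.15 with numpy 2.4.6, pandas 2.3.3 and scipy 1.17.1, and the code was tested on simulated peaks. The interval of a median uses order statistics. Groups follow the antibody labels, and no test was made, since no group has a replicate. Named runs were the 12 with the most peaks, the 6 with the highest-scoring peak and the 6 with the most YAP-overlapped members (ties by summed score for the first, by size for the last). The members and settings were chosen with earlier results of these data known, and comparisons by width, rank, distance from wide peaks, outermost chromosome parts and layout after values had been seen. Planned counts of genes and motifs at the runs were not made, because no annotation or genome of hg19 was used here.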

Additional observations from a re-analysis of the deposited data

Results flagged for a closer look

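In some classes, the difference between members and eligible TEAD1 peaks in no run had opposite signs for the YAP antibodies. The difference between antibodies was not tested. Beyond 1000 kb from wide peaks, the difference (members minus peaks in no run) was -0.531 percentage points for Avruch and 0.355 for Santa Cruz. In peaks under 250 bp wide it was -1.02 and 0.191 percentage points, and in peaks of 250 to 349 bp it was -0.411 and 0.172. Only 4 and 7 members had a Santa Cruz peak in these width classes, and the Santa Cruz intervals overlapped those of peaks in no run. The Avruch intervals overlapped at 250 to 349 bp (1.32 to 2.95 against 2.16 to 2.64) and beyond 1000 kb (1.14 to 2.26 against 1.99 to 2.29). Over all members the differences were 0.790 and 0.716 percentage points, both higher in runs.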

How the results depend on the processing

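With gaps of at most 5 kb, 132 runs held 1004 members, with a median score of 71.3. At least 1 member was overlapped by a YAP peak in 21.2% of these runs, and runs with YAP are counted in this way below. Avruch and Santa Cruz shares were 5.38% and 2.09%, against 2.15% and 0.44% of peaks in no run. With gaps of at most 20 kb, 945 runs held 8538 members (67.5, 2.21% and 0.691%, against 2.22% and 0.427% in no run). Runs of 8 or more numbered 153 with 1640 members, an Avruch share of 4.15% (2.15% in no run) and YAP in 23.5% of runs. With no exclusion around wide peaks, the median score was 71.2 and 22.7% of runs had YAP. The shares were 5.79% and 2.88%, against 2.25% and 0.485% in no run. The 50% of TEAD1 peaks with the highest scores gave 62 runs and 472 members (97.2, 10.2% and 4.24%, with YAP in 35.5% of runs). Peaks in no run had 2.63% and 0.615% at that setting. Joining peaks within 1 kb left 197 runs of 1483 joined peaks with a median score of 70.2. An overlap of 50% of both peaks gave 0.826%, 0.318% and YAP in 6.15% of runs, against 0.949% and 0.184% of peaks in no run. Settings added after the data had been seen gave Avruch shares of 1.78% without the 6 runs richest in YAP and 2.03% without chromosome 5. Runs drawn beyond 1000 kb from wide peaks numbered 257 with 1988 members (1.61% and 0.704%, against 2.14% and 0.348% in no run). Members had a higher Santa Cruz share than peaks in no run in all 12 alternatives. Their Avruch share was higher in 7 and not higher in 5. Of these 5, gaps of at most 20 kb and an overlap of 50% of both peaks were planned. The others, added after the data had been seen, left out the 6 runs richest in YAP, chromosome 5, or peaks within 1000 kb of wide peaks. Leaving out the 6 runs, picked by their overlap, lowers the share by construction. Chromosome 5 holds 4 of those 6 runs, so leaving it out is no independent check. The 12 are thus not equal checks. The causes of these shifts were not tested. The lists give no depth, so a missing YAP peak does not show that YAP was absent. No paired analysis was possible because each antibody had 1 library.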
